A study of Rattus norvegicus with 12 samples.

Results

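The genes of synaptic vesicles and of membrane fusion were examined in the arcuate nucleus (ARC) of adult rats whose mothers had eaten a low-protein diet. The set held every gene on the array whose annotated symbol marked it as a synaptotagmin, syntaxin, SNAP, VAMP, numbered syntaxin binding protein, complexin, synapsin, SV2 or Rab3 gene. It came to 56 of the 14217 genes with a probe set of their own, measured by 87 of the 31042 probe sets. Members were taken by name only. Where several probe sets carried a gene's symbol, the one with the highest mean over the 12 arrays stood for it. The 56 genes were 16 synaptotagmins, 12 syntaxins, 7 VAMPs, 4 SNAP proteins, 4 syntaxin binders, 4 Rab3 proteins, 3 complexins, 3 synapsins and 3 SV2 proteins.

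The 6 recuperated rats were born to dams that ate a diet of 8% protein in pregnancy, and from postnatal day 3 they were nursed by control dams in small litters of males. The 6 control rats were born to control dams and suckled by control dams in larger litters of both sexes, so maternal diet and litter cannot be told apart. All 12 were male Wistar rats with no genetic change stated, ate standard chow and were sampled at 3 months of age. The ARC was cut by laser from cresyl violet-stained sections, its RNA was amplified, and 1 Affymetrix Rat Genome array was hybridised per rat. By the study's methods each array of a group stands for a litter, while the labels number the animals only. In tissue of mixed cells, fewer cells of a type and less RNA per cell cannot be told apart.

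A neuron releases transmitter when a vesicle fuses with the cell membrane. A VAMP on the vesicle zips together with a syntaxin and SNAP25 on the membrane, which together are called SNARE proteins, while syntaxin binding proteins and complexins steer the zippering and a synaptotagmin senses the calcium that triggers it. Synapsins tether vesicles in reserve, SV2 proteins sit in the vesicle membrane, and Rab3 proteins bring vesicles to the release site. Other members of the same families serve the Golgi, endosomes, lysosomes and autophagosomes of all cells. In the ARC this machinery releases both the fast transmitters and the peptides by which neurons control feeding and pituitary hormones.

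The stretch of 250 bases before the start of transcription is shown for 3 genes to which the values below return. Vamp2 had the smallest p-value of the set, Syt9 varied most between arrays, and Syn1 is the gene of the main neuronal synapsin. The sequences are from RefSeq on the GRCr8 build and run 5′ to 3′ on the plus strand, with GC boxes (GGGCGG, or CCGCCC on the other strand) in capitals for Vamp2 and Syt9, and the cyclic AMP response element TGACGTCA in capitals for Syn1. They lie at chr10:54292539-54292788, chr1:170687555-170687804 and chrX:3725495-3725744.
Vamp2: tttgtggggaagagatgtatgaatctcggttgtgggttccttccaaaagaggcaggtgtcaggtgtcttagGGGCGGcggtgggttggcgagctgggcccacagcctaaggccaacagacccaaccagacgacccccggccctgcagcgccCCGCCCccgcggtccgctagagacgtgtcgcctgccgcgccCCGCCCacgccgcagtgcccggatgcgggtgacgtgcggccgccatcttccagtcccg
Syt9: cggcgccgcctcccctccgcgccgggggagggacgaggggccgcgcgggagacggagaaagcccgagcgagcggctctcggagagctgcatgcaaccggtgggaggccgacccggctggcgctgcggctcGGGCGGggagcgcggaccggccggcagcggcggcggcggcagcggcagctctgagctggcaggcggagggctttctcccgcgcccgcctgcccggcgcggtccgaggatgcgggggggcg
Syn1: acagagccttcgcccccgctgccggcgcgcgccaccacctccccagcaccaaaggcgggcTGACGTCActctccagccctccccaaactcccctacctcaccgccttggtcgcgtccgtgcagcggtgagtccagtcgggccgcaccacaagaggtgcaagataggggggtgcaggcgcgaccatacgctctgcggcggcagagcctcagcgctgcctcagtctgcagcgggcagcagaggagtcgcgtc

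All 3 stretches were rich in G and C, at 68% for Vamp2, 80.8% for Syt9 and 69.6% for Syn1. Promoters were matched for 45 of the 56 genes. A GC box on either strand lay in 28 of the 45 (62.2%), against 54.2% of the promoters of 11700 genes on the array. The cyclic AMP response element lay in 2, Syn1 and Vamp1 (4.44%, against 2.64%). CCAAT lay in 15 (33.3%, against 35.1%), and the TATA box letters TATAAA lay only in Stxbp3 (2.22%, against 8.06%). These are letter matches and were not tested.

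Values are log2 signals above the median of their array, so that 1 unit is a doubling and a gene at 0 is as bright as the middle probe set. By that measure 39 of the 56 genes were above the median on all 12 arrays, 3 on 6 to 11 arrays and 14 on fewer than 6 arrays, of which 6 were below it on every array. The neuronal fusion core was well measured: Snap25, Vamp2, Syt1, Stx1a, Cplx1, Cplx2, Syn1, Syn2, Sv2a, Sv2b and Rab3a were above the median on all 12 arrays.

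The 12 arrays were alike, with correlations between pairs of 0.9589 to 0.9879, but recuperated array 4 stood apart. It had the lowest mean correlation with the others (0.9666), though recuperated array 5 was close to it (0.9676). The mean signal over 7 ARC genes was 0.60 on array 4, each of them at its lowest, while the remaining 11 arrays ran 2.92 to 3.31. The mean of 4 genes of the neighbouring ventromedial nucleus was 3.07 there and -0.41 to 1.09 elsewhere. The mean of 10 neuronal markers was 4.55 there and 3.80 to 4.11 elsewhere, so neurons were present in every sample, and the neuronal mean did not separate the groups (4.01 ± 0.28 in recuperated and 3.97 ± 0.12 in control rats, SD, n = 6 each). The ARC mean was 2.67 ± 1.03 in recuperated and 3.22 ± 0.04 in control rats, where it ran 3.15 to 3.28. All 7 ARC genes were below 0, recuperated minus control, with a median of -0.61. Array 4 was not the only recuperated array below the control range, and the next lowest was at 2.92. The ventromedial mean was 0.53 ± 1.3 in recuperated and 0.39 ± 0.5 in control rats. The part of these differences in the values below was not tested. The count of differences whose sign turned without recuperated array 4 is given below, with the value without it for the members that lay farthest out on that array.

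None of the 56 genes differed between recuperated and control ARC after adjustment over all 31042 probe sets, where the smallest adjusted p of the set was 0.999 (limma). Over all genes 0% passed that test. At the threshold of 1.3-fold with an unadjusted P below 0.05, 0 members were higher and 0 lower, against 0.612% and 1.21% of all genes. At P below 0.05 alone there was 1 member, Vamp2, and 2.91% of all genes passed. No member had 6 recuperated values wholly above or below its 6 control values, which held for 0.134% of all genes.

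The differences between groups were small and lay on both sides of 0. Recuperated minus control, 30 members were above 0 and 26 below, with a median of 0.016 on the log2 scale. Over all genes 60.3% were below 0 and the median was -0.040. The members ran from -0.35 for Rab3b to 0.50 for Syt13, and only Syt13 and Syn3 (0.49) exceeded 1.3-fold (0.38 on the log2 scale). Both of these were dim, above the array median on 4 arrays and 1 array, and their intervals included 0 (-0.14 to 1.15 and -0.13 to 1.10).

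For part of the set the data gave a bound and not only a missed threshold. The 95% interval of the difference lay wholly within 1.3-fold in both directions for 20 of the 56 genes (35.7%), against 24% of all genes. Among genes above the median on all arrays it did so for 18 of 39 members (46.2%) and 31.6% of all such genes. The tightly bounded members were 7 of 12 syntaxins, 3 of 4 SNAP proteins, 3 of 4 Rab3 proteins, 2 of 7 VAMPs, 2 of 4 syntaxin binders, 2 of 16 synaptotagmins, 1 of 3 SV2 proteins and none of the complexins or synapsins. Among them Stx11 and Stxbp2 were below the array median on every array, so their narrow intervals rest on dim signals. For the other 36 members an interval reached past 1.3-fold on at least 1 side, so these data do not bound its change to that size. Without recuperated array 4 the count was 16 members and 23.5% of all genes. Leaving out each of the arrays in turn gave 8 to 16 members, so 16 was the highest of these counts.

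**Figure D1:**
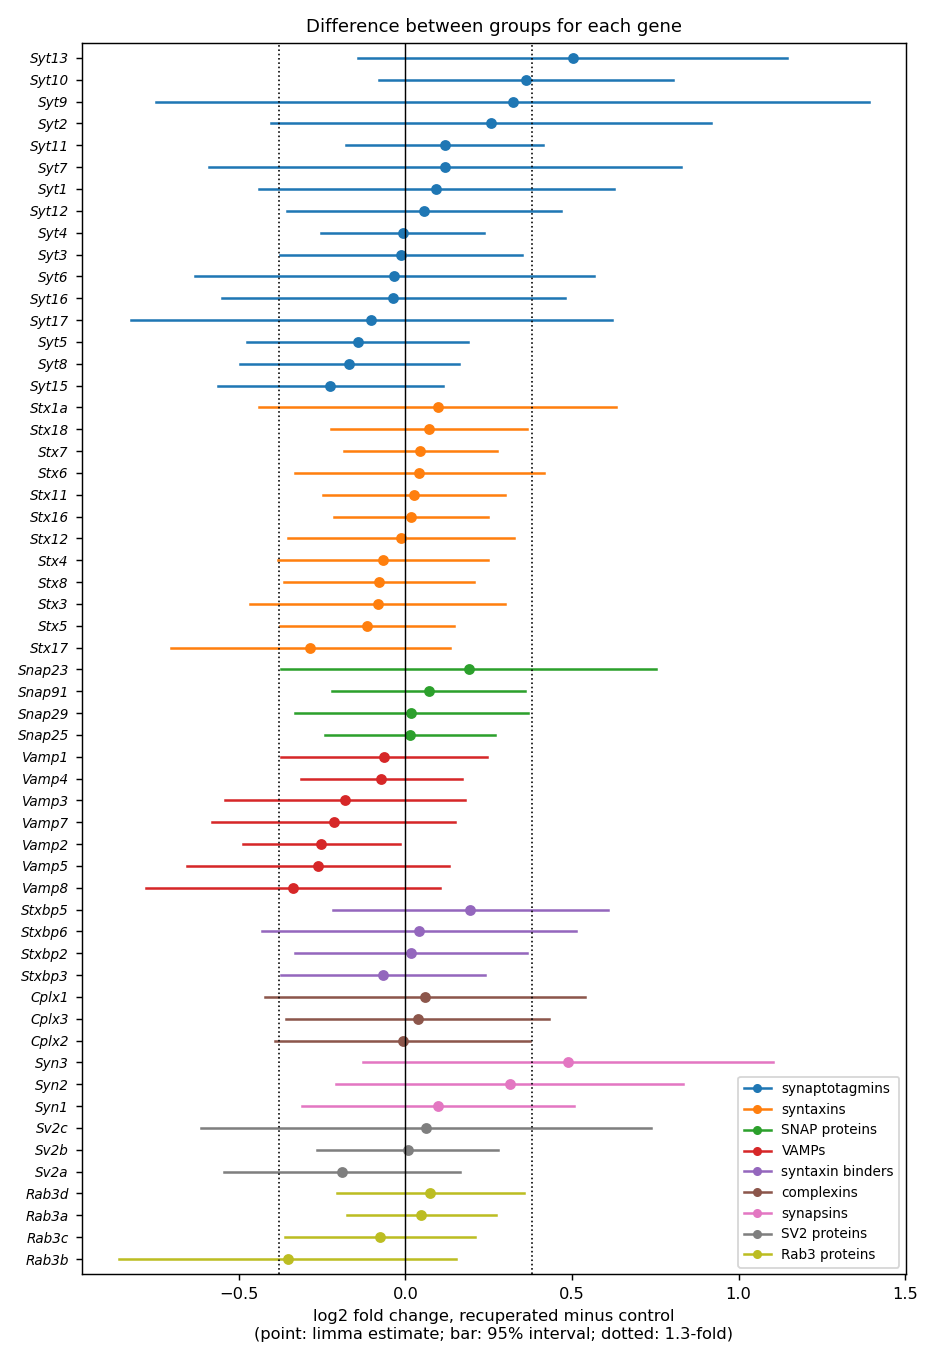
Group differences of the 56 genes as log2 fold change (recuperated minus control), grouped by family and colour. Points are limma estimates, bars are 95% intervals and dotted lines mark 1.3-fold in either direction; only the bar of Vamp2 (-0.49 to -0.015) leaves out 0, and all 7 VAMPs lie left of 0.

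The SNARE proteins of the cell membrane are taken first. Snap25, the membrane SNARE that botulinum toxin A cuts, had a lowest, median and highest signal of 5.93, 6.01 and 6.42 in recuperated rats, against 5.94, 6.01 and 6.29 in control rats. The groups overlapped almost wholly, and the difference was 0.015 ± 0.12 (SE), with an interval of -0.24 to 0.27 (exact permutation p = 0.848) and -0.056 without recuperated array 4. Stx1a, the membrane syntaxin of synapses, spread more widely. It ran 0.24, 1.18 and 1.91 in recuperated rats, against 0.64, 1.14 and 1.63 in control rats. Its difference was 0.097 ± 0.25, and the interval of -0.44 to 0.63 bounded it loosely (exact permutation p = 0.738), with -0.044 when array 4 was left out.

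Other syntaxins work inside the cell and were among the most even genes of the set. Stx7 and Stx8, of late endosomes and lysosomes, differed by 0.045 and -0.078. Stx16, of the trans-Golgi network, differed by 0.017, with all 12 values between 2.33 and 2.69. Stx5 and Stx18, which act between the endoplasmic reticulum and the Golgi, differed by -0.12 and 0.070, and Stx12, of recycling endosomes, by -0.013. All 6 of these intervals lay within 1.3-fold. Stx3 and Stx4, of cell membranes outside the common synapse, differed by -0.083 and -0.067, and Stx11, known from immune cells, was below the median on every array. The smallest p among syntaxins belonged to Stx17, the autophagosome syntaxin, which was dim, at -0.87, -0.55 and -0.32 in recuperated rats, against -0.98, -0.32 and 0.43 in control rats. All 6 recuperated values of Stx17 fell inside the control range (difference -0.29 ± 0.20, exact permutation p = 0.199). Without control array 5 it was -0.43 (limma P = 0.0239, adjusted p = 0.994, exact permutation p = 0.013), past 1.3-fold, so that 1 control rat decided on which side of the threshold it fell.

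Snap23, the relative of Snap25 found in most tissues, differed by 0.19 ± 0.26 (exact permutation p = 0.543), with signals of -0.50, 0.21 and 1.15 in recuperated rats, against -0.46, 0.025 and 0.54 in control rats. Snap29, which pairs with Stx17 on autophagosomes, differed by 0.018, and its interval of -0.33 to 0.37 lay within 1.3-fold. Snap91 shares only the letters of its name, since it encodes AP180, a clathrin assembly protein of the vesicle retrieval step. It differed by 0.070, with an interval of -0.22 to 0.36, and by -0.028 without recuperated array 4.

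The VAMPs were the only family in which no gene lay above 0. Their differences were -0.063 for Vamp1, -0.25 for Vamp2, -0.18 for Vamp3, -0.072 for Vamp4, -0.26 for Vamp5, -0.22 for Vamp7 and -0.34 for Vamp8, with a median of -0.22 beside the -0.040 of all genes. Over all genes 60.3% were below 0, so a low sign was the commoner one on these arrays. None of the 7 passed the adjusted test, and the list as a whole was not tested. Of the 13 VAMP probe sets 11 were below 0. The family holds unlike proteins: Vamp1 and Vamp2 are the synaptobrevins of synaptic vesicles, Vamp3 is their counterpart in other cells, Vamp4 belongs to the trans-Golgi network, Vamp7 and Vamp8 to late endosomes and lysosomes, and Vamp5 to muscle and other non-neuronal cells.

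Vamp2, the main vesicle SNARE of forebrain synapses and the target of tetanus toxin, had the clearest difference of the 56. Its signal was 4.02, 4.20 and 4.31 in recuperated rats, against 4.25, 4.40 and 4.63 in control rats. Of the recuperated values 4 lay below every control value and the other 2 lay at the low end of the control range. The mean was 4.18 ± 0.11 in recuperated and 4.43 ± 0.14 in control rats (SD, n = 6 each), a difference of -0.25 ± 0.11 with an interval of -0.49 to -0.015, which is a level 1.19-fold higher in control rats. The exact permutation test gave p = 0.00649, where 0.00216 is the smallest p that 6 against 6 arrays allow, and limma gave P = 0.0388 and an adjusted p of 0.999. It was 1 of 56 genes examined.

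Recuperated array 4 held the highest recuperated value of Vamp2, 4.31. Without that array the difference was -0.28 (exact permutation p = 0.00649). Leaving out each of the 12 arrays in turn gave -0.29 to -0.21, with exact permutation p from 0.00433 to 0.0152, while limma, which draws the variance of each gene toward that of all genes, gave P from 0.0294 to 0.0913, with 5 of 12 below 0.05. A further Vamp2 probe set, above the array median on 1 array only, gave -0.48 ± 0.42 (exact permutation p = 0.37).

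Vamp8, the endobrevin of late endosomes, had the largest difference of the family, at 0.44, 1.39 and 1.73 in recuperated rats, against 1.39, 1.65 and 2.04 in control rats (exact permutation p = 0.149). Its lowest value was that of recuperated array 4, and without it the difference was -0.16. The same array gave the lowest Vamp3 (3.51, against 4.15 to 4.67 on the other 11) and Vamp5 (-1.14, against -0.79 to 0.16), which without it differed by -0.033 and -0.14. All 7 VAMPs were still below 0 without that array, with a median of -0.16. The mean of 6 microglial markers moved the same way as these genes, at 0.61 on that array and 1.11 to 1.68 on the others. Over the groups it ran 0.61 to 1.59 in recuperated and 1.29 to 1.68 in control rats, while the mean of 5 tanycyte markers was also lowest on that array (0.22, against 1.48 to 2.60 on the others) and ran 0.22 to 2.60 in recuperated and 1.48 to 2.47 in control rats. The part of either in the VAMP values was not tested.

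**Figure D2:**
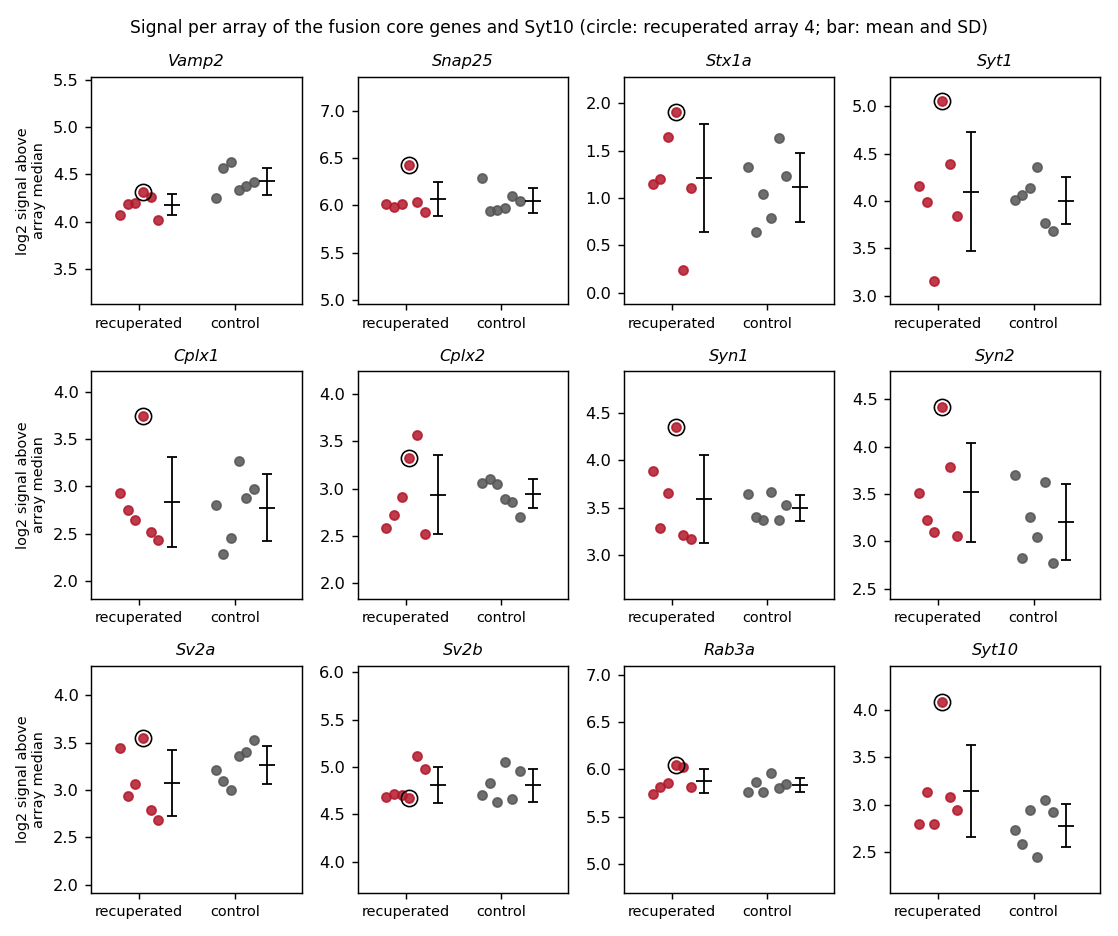
Log2 signal above the array median on each of the 12 arrays for the 11 measured genes of the neuronal fusion core and for Syt10, recuperated left of control, with the mean and SD beside each group. All panels have the same height in log2 units; Vamp2 is the panel in which 4 recuperated points lie below every control point, and the circled recuperated array 4 is the highest recuperated point in 10 of the 12 panels.

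The calcium sensors held both well bounded and loosely bounded genes, and the 3 largest SDs of the set. Syt1, the sensor of fast release, ran 3.16, 4.08 and 5.06 in recuperated rats, against 3.69, 4.04 and 4.36 in control rats. The medians were close, the recuperated rats held both the lowest and the highest value, and the difference was 0.093 ± 0.25 with an interval of -0.44 to 0.63 (exact permutation p = 0.729), or -0.099 without recuperated array 4. Syt10, a sensor of growth factor release in mouse olfactory neurons, had the smallest p of the family. Its signals were 2.80, 3.02 and 4.09 in recuperated rats, against 2.45, 2.83 and 3.05 in control rats. Of its recuperated values 3 lay above every control value, and the difference was 0.36 ± 0.21 (interval -0.08 to 0.80, exact permutation p = 0.0996). Without recuperated array 4 it was 0.17.

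Syt4 and Syt11, vesicle synaptotagmins that bind calcium weakly or not at all, were above the array median on all 12 arrays. Syt4 differed by -0.008, with an interval of -0.25 to 0.24, and Syt11 by 0.12, with an interval of -0.18 to 0.41. The SD of Syt11 was 0.28 in recuperated and 0.12 in control rats, and without recuperated array 4 it differed by 0.058. Syt2, Syt3, Syt5 and Syt6, calcium-binding members, differed by 0.26, -0.013, -0.14 and -0.033. Without recuperated array 4 Syt2 differed by -0.052 and Syt6 by -0.27. Syt12 and Syt13, which lack calcium binding, differed by 0.055 and 0.50. Syt8, Syt15 and Syt16 were below the array median on every array, so that their differences of -0.17, -0.23 and -0.037 rest on dim signals. Across the 16 synaptotagmins 8 were above 0 and 8 below, with a median of 0.023.

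Of the proteins that steer SNARE assembly, Stxbp5 (tomosyn), which occupies membrane SNAREs and holds back priming, had the smallest p. Its signals were 4.04, 4.55 and 5.37 in recuperated rats, against 4.17, 4.42 and 4.69 in control rats, a difference of 0.20 ± 0.19 (exact permutation p = 0.381). Without recuperated array 4 it was 0.044. Stxbp3 (Munc18-3), of general membrane traffic, differed by -0.067 with an interval of -0.37 to 0.24, and Stxbp2 and Stxbp6 by 0.017 and 0.040.

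Cplx1 and Cplx2, the complexins that clamp and promote fusion at brain synapses, did not separate the groups either. Cplx1 ran 2.43, 2.70 and 3.74 in recuperated rats, against 2.29, 2.84 and 3.27 in control rats, a difference of 0.058 ± 0.22 (exact permutation p = 0.829), or -0.12 without array 4. Cplx2 ran 2.52, 2.82 and 3.56 in recuperated rats, against 2.70, 2.97 and 3.10 in control rats. Its means were almost equal, at a difference of -0.008 ± 0.18 (exact permutation p = 0.972), while the recuperated values covered a wider range. Cplx3, known from retinal ribbon synapses, was below the array median on every array.

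By the probe set taken, all 3 synapsins lay above 0. A further Syn1 probe set, above the median on all 12 arrays, gave -0.018, and those of Syn2 gave 0.052 and 0.42. Syn1, which tethers reserve vesicles to one another and to actin, ran 3.17, 3.48 and 4.35 in recuperated rats, against 3.37, 3.47 and 3.67 in control rats. Its difference was 0.098 ± 0.19 (exact permutation p = 0.662). Syn2, its close relative, ran 3.06, 3.37 and 4.42 in recuperated rats, against 2.77, 3.16 and 3.70 in control rats, a difference of 0.31 ± 0.24 with an interval of -0.21 to 0.83 (exact permutation p = 0.277). Syn3, an early developmental synapsin, was dim, at -1.16, -0.35 and 0.79 in recuperated rats, against -1.63, -0.65 and -0.34 in control rats (0.49 ± 0.29, exact permutation p = 0.180). In each of the 3 genes recuperated array 4 was the highest of the 12. Without it they differed by -0.053 for Syn1, 0.13 for Syn2 and 0.27 for Syn3. Without recuperated array 6 Syn3 was 0.66 (limma P = 0.029, adjusted p = 1.000, exact permutation p = 0.0325), past 1.3-fold, so its side of the threshold also turned on 1 rat.

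Sv2a, the vesicle protein that levetiracetam binds, ran 2.68, 3.00 and 3.55 in recuperated rats, against 3.00, 3.29 and 3.53 in control rats. Of its recuperated values 3 lay below every control value and 1 lay above them all, and the difference was -0.19 ± 0.17 (exact permutation p = 0.279). The value above them all was that of array 4, without which the difference was -0.29 (exact permutation p = 0.0952). Sv2b, its relative, ran 4.67, 4.72 and 5.12 in recuperated rats, against 4.63, 4.77 and 5.05 in control rats. It was among the best bounded core genes, with a difference of 0.007 ± 0.13 and an interval of -0.26 to 0.28 (exact permutation p = 0.952). Sv2c was dim and differed by 0.062, or by -0.25 without recuperated array 4.

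Rab3a, the main Rab protein of synaptic vesicles, ran 5.74, 5.83 and 6.05 in recuperated rats, against 5.76, 5.82 and 5.96 in control rats. All 12 values lay between 5.74 and 6.05, and the difference was 0.048 ± 0.10 with an interval of -0.18 to 0.27 (exact permutation p = 0.442), the narrowest interval among the core genes. Rab3c and Rab3d were also bounded within 1.3-fold, at -0.077 and 0.075. Rab3b, which is found in the pituitary and in some neurons, ran 1.86, 3.16 and 3.55 in recuperated rats, against 3.13, 3.37 and 3.57 in control rats (-0.35 ± 0.24, exact permutation p = 0.177). The 1.86 was that of recuperated array 4, and without it the difference was -0.12.

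Several genes were measured by more than 1 probe set, which gave 24 checks within the same arrays. The probe sets of a gene had the same sign in 11 of the 24. They differed little for Syt3 (-0.013 and -0.003) and Stxbp6 (0.040 and 0.072), and most for Stx6, a trans-Golgi syntaxin (0.042 and 0.61), and Syt7 (-0.34 to 0.12). Of the 87 probe sets 3 had a limma P below 0.05, against 3.45% of all probe sets: the brighter one of Vamp2, a dimmer one of Syt7 at -0.34 (exact permutation p = 0.0411), and the dimmer one of Cplx3 at 0.39 (exact permutation p = 0.0455), below the array median on every array and the only 1 of the 87 past 1.3-fold as well (1.2% of all probe sets were so higher).

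Much of the spread among the members lay on recuperated array 4. Of the 56 genes 23 (41.1%) were higher there than on any other array, against 12.4% of all genes, and 7 (12.5%) were lower, against 18.9%. On that array 10 members lay at least 1 log2 unit above the mean of the other 11 arrays (3.14% of all genes) and 3 at least 1 unit below (3.36%). The set therefore leaned upward there while all genes leaned downward, beside a neuronal marker mean that was also the highest of the 12 arrays. The mean of 5 oligodendrocyte markers was the highest there as well (3.94, against 3.31 to 3.77). The part of the dissected area and of cell content in this was not tested, and it rests on 1 rat.

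The 3 genes that lay farthest from the mean of the other 11 arrays were the synaptotagmins Syt9 (2.917), Syt17 (-1.921) and Syt2 (1.825). Syt9, a fast release sensor of limbic and striatal neurons in mice, was at 4.50 on array 4, against 0.77 to 2.48 on the other 11 arrays. Syt2, the fast sensor of hindbrain and spinal synapses, was at 1.49, against -0.71 to 0.22. Syt7, the slow sensor of asynchronous release, was at 1.27, against -0.84 to 0.53. Syt6 was at 2.35, against 0.52 to 1.66, and Syt10 at 4.09, against 2.45 to 3.13. Syt17, a C2-domain protein of the family that lacks the membrane anchor, went the other way, at 0.70, against 1.93 to 3.04. In all, 8 of 16 synaptotagmins were highest and 1 was lowest on that array. For Syt9, Syt17 and Syt7, the 3 members with the largest SD over the 12 arrays (0.976, 0.639 and 0.626), the group difference was 0.32 ± 0.50, -0.10 ± 0.34 and 0.12 ± 0.33 (exact permutation p = 0.719, 0.859 and 0.773). Without array 4 these were -0.18, 0.24 and -0.15, the opposite sign in each.

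All 3 synapsins were highest on array 4, with a median of 1.16 above the mean of the other arrays, against 0.51 for the synaptotagmins. Highest there too were Cplx1 (3.74, against 2.29 to 3.27), Sv2c, the SV2 isoform of the basal ganglia (1.15, against -0.97 to 0.06), and Stxbp5 (5.37, against 4.04 to 4.84). The syntaxins stayed within the range of the other arrays in 9 of 12 cases. Rab3b was lowest at 1.86, against 2.96 to 3.57, and Vamp8 at 0.44, against 1.24 to 2.04. Vamp2 and Syt4 lay within 0.05 of the mean of the other arrays.

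**Figure D3:**
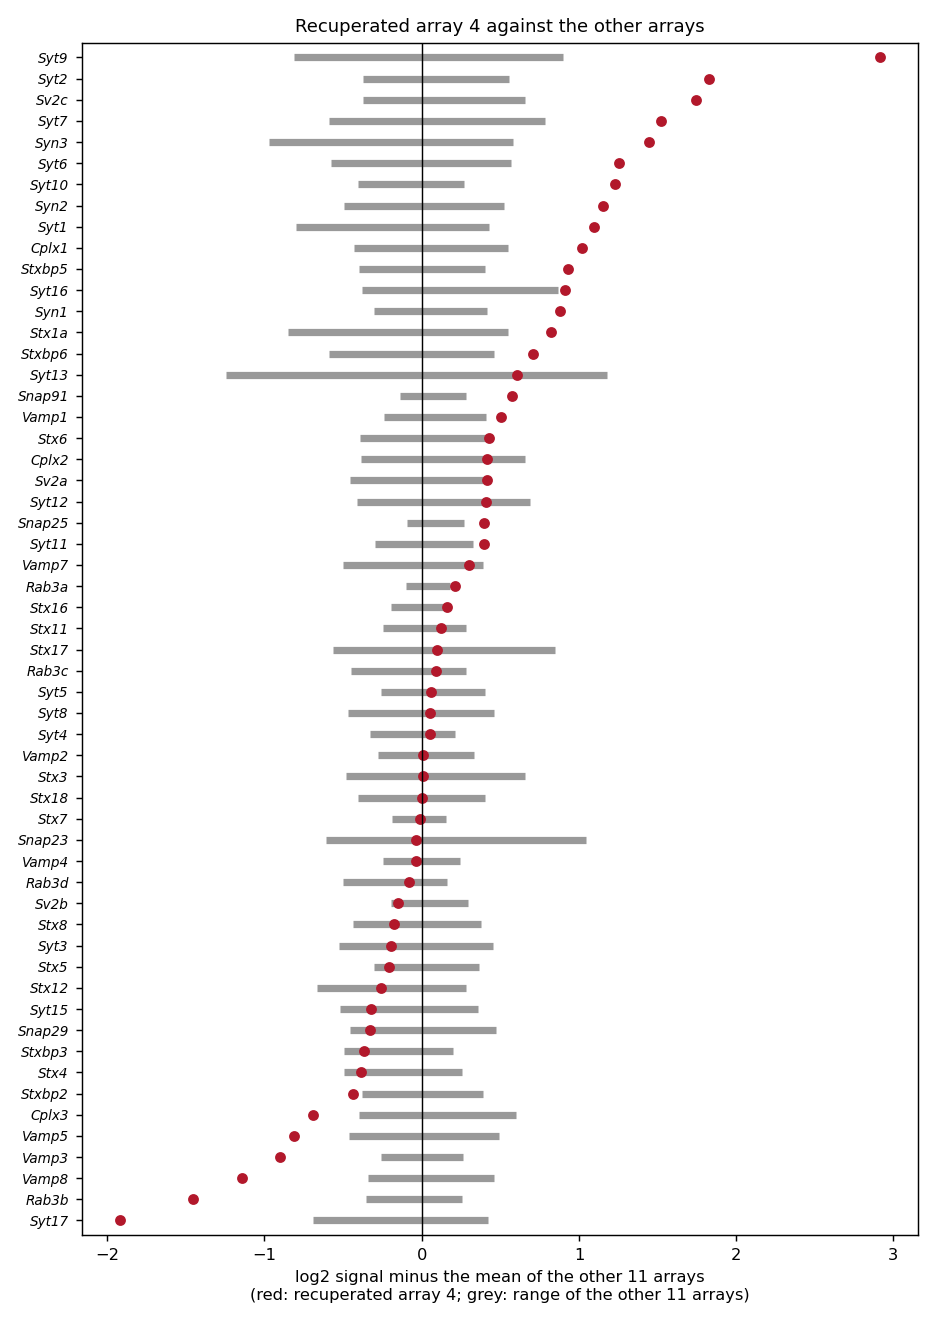
For each gene, the log2 signal on recuperated array 4 (red point) minus the mean of the other 11 arrays, with the range of those 11 as a grey bar. The points of 23 genes lie right of their bar, from Stx16 to Syt9 (2.92), and those of 7 lie left of it, down to Syt17 (-1.92).

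Leaving that array out turned the sign of 17 of the 56 differences. Members above 0 were then 19 and below 0 37, with a median of -0.048, while 57.8% of all genes were below 0 and their median was -0.029. Vamp2 was the only member with P below 0.05 in that comparison too, and 0 members passed 1.3-fold as well. The SD within recuperated rats was larger than within control rats for 41 of 56 members (73.2%, against 62.7% of all genes), with a median of 0.31 in recuperated and 0.24 in control rats. Without array 4 it was larger for 28 of 56 (50%, against 55.3%), and the recuperated median was 0.26.

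**Figure D4:**
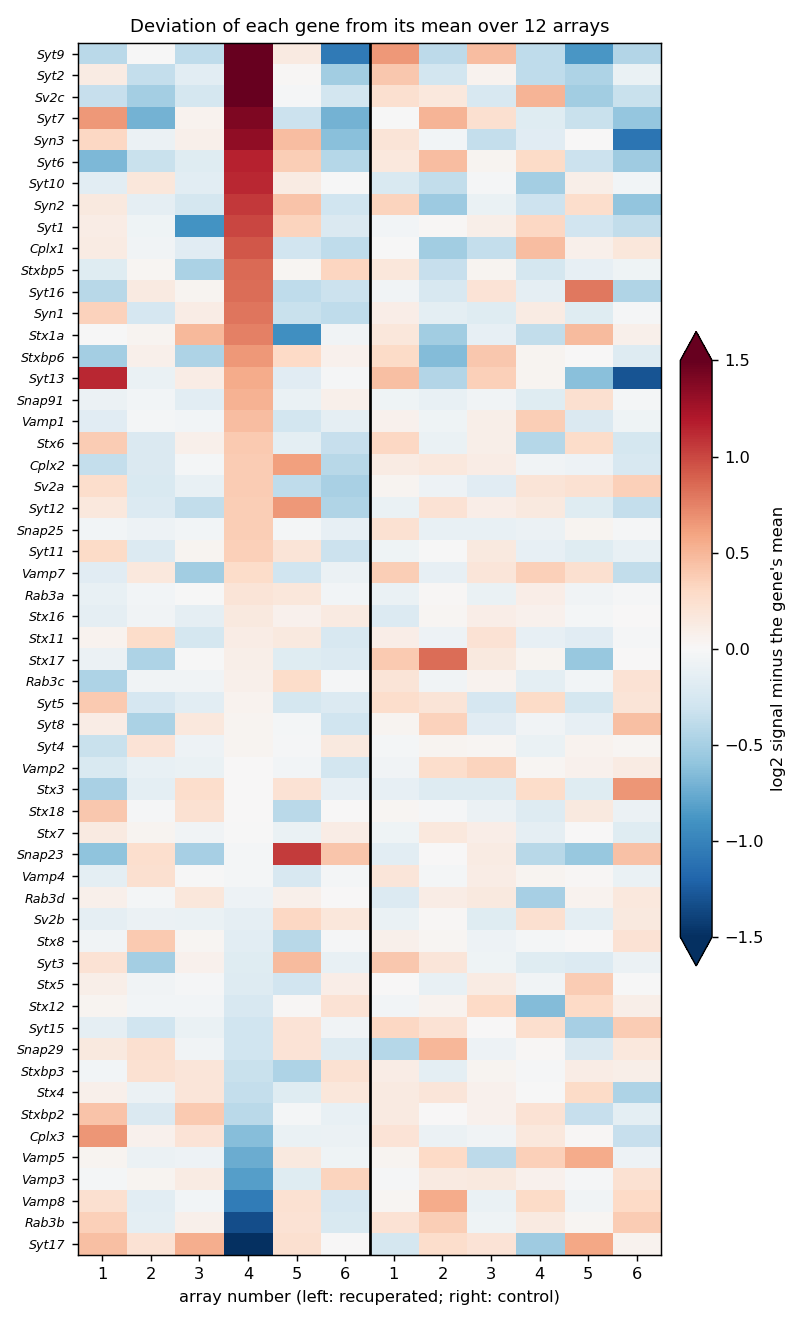
Log2 signal of each gene minus its own mean over the 12 arrays, with the recuperated arrays left of the line and the control arrays right of it, ordered by recuperated array 4. Colours stop at 1.5 in either direction; the column of recuperated array 4 holds the darkest cells at top and bottom, and no gene shows 1 colour on all recuperated and the other on all control arrays.

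Genes that act beside these proteins were read from the same fit. They were 71 measured genes of 78 listed for the active zone, the NSF cycle that takes SNAREs apart, other vesicle proteins, vesicle retrieval, and the vesicular proton pump and transporters. Of these 0 were higher and 2 lower at 1.3-fold with P below 0.05, against 0.612% and 1.21% of all genes. On the log2 scale 32 were above 0 and 39 (of 71) below, where 60.3% of all genes were below 0, and the median was -0.008. None passed adjustment. Both calls were among the 18 active zone genes. Rims3, a short RIM protein, was dim, at -1.82, -1.19 and -0.63 in recuperated rats, against -0.90, -0.61 and -0.16 in control rats (-0.59 ± 0.21, limma P = 0.0124, adjusted p = 0.999, exact permutation p = 0.0238). Unc13c, the Munc13 priming factor best known from the cerebellum, ran 0.20, 0.65 and 0.79 in recuperated rats, against 0.72, 0.85 and 1.42 in control rats (-0.40 ± 0.15, limma P = 0.0224, adjusted p = 0.999, exact permutation p = 0.0108). In both, 4 recuperated values lay below every control value. Another active zone gene had P below 0.05 and went the other way without reaching 1.3-fold. This was Rimbp2, a RIM binding protein, at 2.00, 2.29 and 2.53 in recuperated rats, against 1.61, 2.11 and 2.15 in control rats (0.31 ± 0.14, limma P = 0.0469, adjusted p = 0.999, exact permutation p = 0.0455), with 5 recuperated values above every control value.

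The remaining lists held no call. The NSF cycle had a median of 0.11 over 4 genes, and Napb, the SNAP adaptor of neurons, had its smallest p (0.20 ± 0.28, exact permutation p = 0.673). Napb was at 4.94 on recuperated array 4, against 3.06 to 3.79 elsewhere, and without that array it differed by -0.071. The other vesicle proteins had a median of -0.017 over 12 genes, led by Dnajc5, the vesicle chaperone CSP (0.11 ± 0.12, exact permutation p = 0.258). Vesicle retrieval had a median of -0.007 over 20 genes, led by Itsn2, an endocytic scaffold (0.21 ± 0.13, exact permutation p = 0.0844). The pump and transporters had a median of -0.042 over 17 genes. Slc32a1, which loads GABA into vesicles, had the smallest p of these, at 2.22, 4.18 and 4.46 in recuperated rats, against 4.29, 4.47 and 4.63 in control rats (-0.62 ± 0.30, exact permutation p = 0.0173, limma P = 0.0611). Its 2.22 was that of array 4, where Slc17a6, which loads glutamate, was at 5.33, against 2.78 to 4.35 elsewhere. Without that array Slc32a1 differed by -0.29.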

How the data were processed

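The deposited values were log2 RMA signals of the authors, per the labels made with Affymetrix Expression Console, which summarise the perfect-match probes of each probe set after background correction and quantile normalization over the arrays. Its version is not given in the sources used here. From each array its median over 31042 probe sets was subtracted (6.23 to 6.3 in recuperated, 6.21 to 6.27 in control), after 57 control probe sets were set aside. Of the probe sets 20826 carried 1 symbol, 436 several and 9780 none, by the platform annotation. RMA spreads values over the arrays together, so a sample that stands apart touches all, and it compresses changes of dim probe sets. The number of arrays limits the precision.

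Recuperated was compared with control by limma 3.58.1 (lmFit and eBayes in R 4.3.3, group only), adjusted by Benjamini-Hochberg over all probe sets, beside the study's threshold of 1.3-fold and P below 0.05. Single genes also had an exact two-sided permutation test over 924 arrangements. On simulated data, log2 changes of 0.5, 1, 2 and 3 were recovered for 2, 35, 48 and 50 of 50 probe sets each, among 31042, with 11 false calls. In that simulation, changes of the size seen here were mostly below what adjustment can detect. Its values were independent and normal, without correlated genes or an array that stands apart, so the limit may differ in the real data. Genes given with full values were the fusion core, any member past the threshold, the smallest p of each family, the 3 largest SDs, and the smallest p of each other release list. Unc13c, Rimbp2, Slc17a6 and further members were named after their values were seen. The members and lists were chosen with earlier results of these data known. Figures were drawn with matplotlib 3.10.9. The alternatives were another scaling, filter, test, weighting, probe set rule, a block and leaving out each array.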

Additional observations from a re-analysis of the deposited data

Results flagged for a closer look

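In 12 of the 112 gene and group combinations 1 array stood clear of the other 5 of its group. Chance gives about 1 in 20 for independent normal values, but genes measured on the same array are not independent. The share over all genes was not computed, so the count is not read as a trait of the set. Recuperated array 4 was the array in 10 of the 12. It was the highest of the recuperated arrays for Syt9 (4.50, others 0.77 to 1.96), Syt10 (4.09, others 2.80 to 3.13), Syt2 (1.49, others -0.71 to -0.06), Sv2c (1.15, others -0.96 to -0.47), Snap25 (6.42, others 5.93 to 6.03), Snap91 (6.05, others 5.37 to 5.60) and Vamp1 (1.60, others 0.86 to 1.11). It was the lowest for Rab3b (1.86, others 2.96 to 3.55), Syt17 (0.70, others 2.47 to 3.00) and Vamp5 (-1.14, others -0.49 to -0.25). Among control rats, Snap91 was at 5.76 on array 5, against 5.34 to 5.49 on the others, and Stx12 at 3.31 on array 4, against 3.91 to 4.26. These are log2 signals above the array median, and no cause was tested.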

How the results depend on the processing

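None of the 56 members passed adjustment under any alternative run. Members with P below 0.05 were 0 without median subtraction and 0 where the probe sets of a gene were averaged. Vamp2 then had a limma P of 0.0527 and 0.11 (exact permutation p = 0.00649 and 0.173). Deviations of same-numbered rats from their group means hardly correlated (r -0.162 to 0.08). With so few arrays this cannot exclude a pairing, and the labels number the animals only. With the replicate block 2 members were higher past the threshold (Syn3 and Syt13), the same 2 had P below 0.05, Vamp2 did not, and 8 intervals lay within 1.3-fold. Of the whole array, 371 probe sets passed the threshold upward and 395 downward, 118 and 150 with dim probe sets left out (15622 tested), and 243 and 263 by the methods' t-test, under which the adjusted p of Vamp2 was 1. Of 171 values of named genes with all arrays kept, 161 kept their sign. The 10 that turned were Cplx2 (0.012) without median subtraction, Syt1 (-0.074), Snap25 (-0.042), Cplx1 (-0.021), Syn1 (-0.025), Syt9 (-0.129), Syt17 (0.025) and Syt7 (-0.191) with array quality weights, which gave recuperated array 4 the lowest weight (0.536), and Cplx1 (-0.060) and Syt7 (-0.154) with averaged probe sets. Recuperated array 5 had the next lowest weight (0.574). The VAMPs were 7 of 7 below 0 except with averaged probe sets and without control array 4 (6 of 7 each) and with dim probe sets left out (6 of 6). The causes were not tested.

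Leaving out 1 array at a time gave 0 to 1 members higher, 0 to 1 lower (Stx17 without control array 5), 0 to 3 with P below 0.05 (Vamp2 dropped out when recuperated rat 1, 2, 3 or 6, or control rat 2, 3 or 6, was omitted), 0 after adjustment, 24 to 37 below 0, a median of -0.048 to 0.036, and 8 to 16 intervals within 1.3-fold. Over all probe sets it gave 342 to 476 higher, 352 to 622 lower (622 without recuperated array 1) and 0 to 1 after adjustment (1 without recuperated array 2). Core genes ranged -0.099 to 0.281 (Syt1), -0.044 to 0.290 (Stx1a), -0.056 to 0.063 (Snap25), -0.123 to 0.157 (Cplx1), -0.133 to 0.075 (Cplx2), -0.053 to 0.183 (Syn1) and -0.055 to 0.055 (Sv2b). Others that crossed or reached 0 ranged 0.000 to 0.330 (Snap23), -0.181 to 0.565 (Syt9), -0.220 to 0.240 (Syt17), -0.149 to 0.273 (Syt7) and -0.071 to 0.293 (Napb).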
